A study of Homo sapiens with 20 samples.

Results

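The records described here are expressed, stand-alone lincRNAs, that is, long intergenic non-coding RNA records that carry no pseudogene flag and whose names mark them neither as antisense, nor as sharing a bidirectional promoter, nor as a neighbour of a developmental transcription factor. A record was taken when its mean FPKM (a measure of level that corrects the fragment number for transcript length and library size) over 7 days was at least 1. Of 18132 lincRNA records among 38369 gene records in all, 7734 met the conditions on name and flag, and 692 of these reached the mean of 1 FPKM. These 692 records are the members. Levels chose them, so their levels are given as a description. Just inside the limit lay linc-C13orf15, linc-PZP-2 and linc-FLJ22184, each with a mean that rounds to 1.00 or 1.01 FPKM, and just outside it lay linc-ZNF681-4 (0.998), linc-SMC1B-3 (0.997) and linc-TRIM43B-4 (0.996).

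The study followed neural progenitors made from the established human embryonic stem cell line H1 as they were driven towards neurons. FGF was withdrawn and BDNF added in a neural differentiation medium, and poly(A) RNA was sequenced as paired-end reads at 7 times, on day 0 and then 1, 2, 4 and 5 days and 11 and 18 days later. Each day had 3 cultures except day 5, which had 2 after the submitters removed an outlying culture, and the cells of days 5, 11 and 18 had been replated at day 4 onto poly-D-lysine and laminin. All groups came from 1 cell line. The deposited table gives 1 FPKM value per record and day that already combines its cultures. No value below therefore has a replicate error, and no difference was tested.

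LincRNA genes are transcribed and processed much like mRNAs but are not known to encode a protein, and many are expressed in few cell types at low level. Some act in the nucleus at or near the site where they are made, some serve as precursors of microRNAs or small nucleolar RNAs, and for most no role is known. A processed pseudogene is a copy of a spliced mRNA that was reverse transcribed and inserted elsewhere in the genome. A copy that lies far from any annotated gene is itself intergenic, and its sequence can stay close to that of the gene it came from.

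The label was checked first, against the hg19 coordinates in the files, the GENCODE v44 annotation lifted to that build and the genome sequence. Of the 692 members, 441 (63.7%) shared at least 1 exon base with an annotated pseudogene on either strand, and 267 had at least 50% of their exon bases on one. By sequence, 211 members (30.5%) were copies: at least 50% of their exon bases matched, at 95% identity or more, the transcript of a protein-coding gene elsewhere in the genome. In 149 of these 211 the coding sequence lay on the strand opposite to the one the record was assigned. The same measure found 184 copies among the 800 pseudogene-flagged lincRNA records with a mean of at least 1 FPKM (23%), 0 among 142 at bidirectional promoters and 2 among 12 named after developmental factors. The pseudogene flag had thus not removed such copies from the members. With 90% identity in place of 95%, 336 members (48.6%) reached the same share of exon bases, so the number of copies depends on that limit.

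The stretches below are shown because they set some of the 20 strongest members beside the coding genes they match. Each is read 5′ to 3′ on the coding strand from the hg19 genome, beginning at the start codon, and capitals in the line of a record mark a base that differs from the coding gene. The records linc-NUDT4-1 (XLOC_003515, chr12:93477091-93477486, plus strand), linc-ATP6AP2-4 (XLOC_017439, chrX:39646171-39647469, plus strand) and linc-CYP24A1-1 (XLOC_010102, chr20:53691099-53691773, minus strand) hold them on the opposite strand, at chr12:93477374-93477451, chrX:39647301-39647390 and chr20:53691183-53691272, inside their exons.
RPL41 coding sequence: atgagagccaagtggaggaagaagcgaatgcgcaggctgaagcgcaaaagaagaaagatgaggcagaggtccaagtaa
linc-NUDT4-1: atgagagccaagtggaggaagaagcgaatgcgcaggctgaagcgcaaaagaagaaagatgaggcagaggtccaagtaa
GAPDH coding start: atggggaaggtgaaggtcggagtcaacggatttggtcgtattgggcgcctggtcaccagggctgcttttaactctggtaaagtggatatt
linc-ATP6AP2-4: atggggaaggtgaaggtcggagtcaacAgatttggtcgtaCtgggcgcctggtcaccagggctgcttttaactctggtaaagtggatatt
RPL12 coding start: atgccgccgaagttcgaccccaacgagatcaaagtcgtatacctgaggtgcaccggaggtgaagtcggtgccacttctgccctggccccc
linc-CYP24A1-1: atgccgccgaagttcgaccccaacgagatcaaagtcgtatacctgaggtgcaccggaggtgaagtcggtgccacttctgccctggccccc
The whole coding sequence of RPL41, a ribosomal protein of 78 coding bases with its stop codon, was present in linc-NUDT4-1 with 0 differences, and the first 90 coding bases of RPL12 in linc-CYP24A1-1 with 0 differences. The first 90 coding bases of GAPDH, a glycolytic enzyme, differed at 2 positions in linc-ATP6AP2-4. Not every strong copy held the coding start. The closest stretch of linc-SLC7A3 differed from RPS23 at 53 of 90 bases, and that of linc-USP9X-2 from RPS2 at 47. In linc-SMCR9 the start of RPL13 differed at 1. Alignment used default options, which take no account of strand, and reads from an identical stretch cannot be assigned by sequence. The levels of such members and of their source genes are therefore uncertain.

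By contrast, 187 members were distinct in sequence: they touched no annotated pseudogene and no exon of a coding record, and under 10% of their exon bases matched a coding transcript, the contig that carries the ribosomal RNA unit, or the mitochondrial genome at 90% identity. The remaining 294 members lay between these sets. Among the distinct members, 93 overlapped a GENCODE lncRNA gene on their own strand, 47 a protein-coding gene, 3 another RNA gene, and 44 no gene. The sets were drawn after the values had been seen, from sequence and position. Level entered where several genes matched within 2 percentage points of the best share. There the gene with the highest mean FPKM supplied the share used.

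A pair of distinct members is shown for the annotation at their position, a short reading frame and a microRNA hairpin. The strongest distinct member, linc-FAAH2-3 (chrX:56755659-56844813, plus strand), overlapped NBDY, which is now annotated as the gene of a short protein found in P-bodies. Its reading frame, at chrX:56755787-56755993 in hg19, has 207 bases and 68 codons before the stop, and is shown with start and stop codons in capitals.
NBDY reading frame: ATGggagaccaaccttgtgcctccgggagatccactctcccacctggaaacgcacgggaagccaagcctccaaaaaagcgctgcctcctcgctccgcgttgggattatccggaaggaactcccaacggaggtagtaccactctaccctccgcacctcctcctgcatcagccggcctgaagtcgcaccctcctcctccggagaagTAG
The record linc-C15orf42-2 (chr15:89911341-89941724, plus strand) starts 4 bases past the 3′ end of the MIR9-3 hairpin at chr15:89911248-89911337. That hairpin gives miR-9, a microRNA of the developing nervous system, whose mature arms are printed from RefSeq (GRCh38.p14) with the seed (bases 2 to 8) in capitals.
miR-9-5p: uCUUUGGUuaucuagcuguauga
miR-9-3p: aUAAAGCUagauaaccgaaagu

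Level separated the sets. Mean FPKM of the members ran from 1.00 to 1117 with a median of 3.69, and 192 members reached 10 FPKM and 37 reached 100. Of those 37, 31 were copies and 0 were distinct, whereas of the 208 members under 2 FPKM, 36 were copies and 84 were distinct. Median mean FPKM was 9.33 in copies and 2.24 in distinct members. Members held between 4.64% (day 0) and 5.50% (day 4) of the summed FPKM of all records, and the 20 strongest held between 48.3% and 54.4% of the members' sum on any day.

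**Figure D1:**
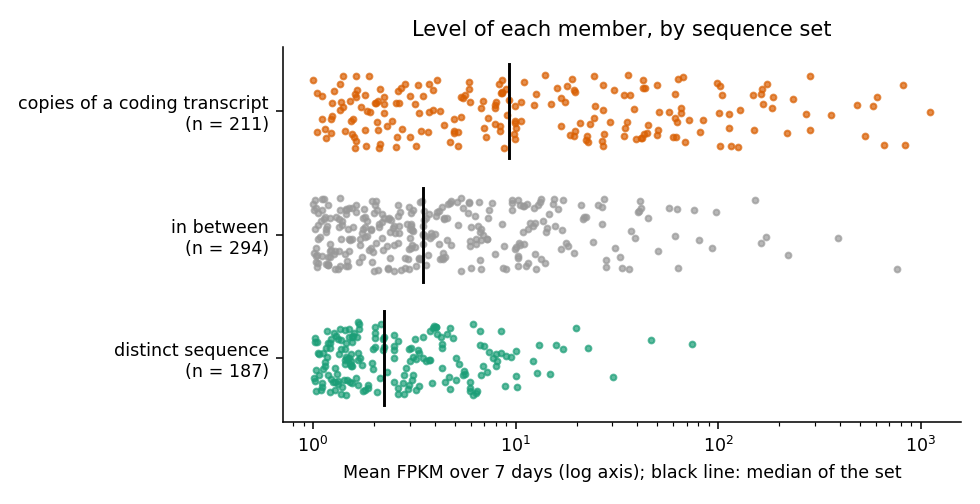
Mean FPKM over the 7 days (horizontal log axis) of each member, 1 point per record, for 211 copies of a coding transcript, 294 members in between and 187 of distinct sequence. Points are spread vertically for visibility and a black line marks the median of each set (9.33, 3.47 and 2.24 FPKM). Copies hold most of the upper end, and no distinct member lies above 100 FPKM.

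Of the 20 strongest members, 17 were copies, 19 lay on a pseudogene and 0 were distinct. Most matched ribosomal protein genes: linc-TPD52-3 (chr8:81471032-81472053, minus strand, RPSA) led with 1208, 1087, 1282, 1329, 1132, 1010 and 770 FPKM on the 7 days in order. The record with the RPL41 sequence, linc-NUDT4-1, was at 824, 852, 990, 1029, 872, 764 and 567 FPKM on those days. Both were highest on day 4 and lowest on day 18. The GAPDH copy linc-ATP6AP2-4 was highest on day 0, with 940, 728, 701, 670, 579, 565 and 455 FPKM. Others in this group matched RPS23 (linc-SLC7A3), RPL13 (linc-SMCR9), HNRNPA1 (linc-SALL1-3), an RNA-binding protein of splicing, RPS3A (linc-BNIP2-1), RPS29 (linc-C3orf43), RPL13A (linc-PRR20C-6), RPLP1 (linc-MTX2), PTMA (linc-SEMA6A-5), RPS2 (linc-USP9X-2), FTL (linc-RNF24), an iron storage subunit, and RPL37 (linc-ALDH3B1-4). The 3 that were not copies at 95% identity still lay on pseudogenes: linc-MAP2K3 (762 FPKM in the mean, EIF1), linc-CNTRL-5 (391, TPT1) and linc-CHORDC1-1 (222, TUBAP2). Over all 211 copies, 164 genes were matched, 39 copies matched a ribosomal protein gene, and the gene with the most copies was PKD1 with 12, followed by RPSA and FTH1 with 5 each. Counting all members, 87 had at least 50% of their exon bases matching another member, so members are not independent of each other.

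Copies and their source genes had similar courses over the days. Comparison was possible for 190 copies whose source gene had a mean of at least 1 FPKM and where neither was listed at 0, covering 144 source genes. The day of highest FPKM was the same in 134 of the 190 pairs, and the difference between day 18 and day 0, on the log2(FPKM + 0.1) scale used throughout, lay within 0.5 of that of the source gene in 151. Across these pairs Pearson's r of the differences was 0.77 and Spearman's rho 0.86. Beside that, the same day of highest FPKM was found for 44 of 142 copies and their nearest coding record, with r = 0.28 and rho = 0.26. For the 36 of these under 5 kb away r was 0.64 and rho 0.62, and for the 106 farther off 0.21 and 0.13. The values of a pair come from the same libraries and several pairs have the same source gene, so these are descriptions. Whether reads were shared within a pair was not tested. In 160 of the 190 pairs the member was below its source gene. Where several genes matched within 2 percentage points of the best share of exon bases, the one with the highest mean FPKM was taken. That choice favours source genes of high level, so the count of 160 depends on it.

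**Figure D2:**
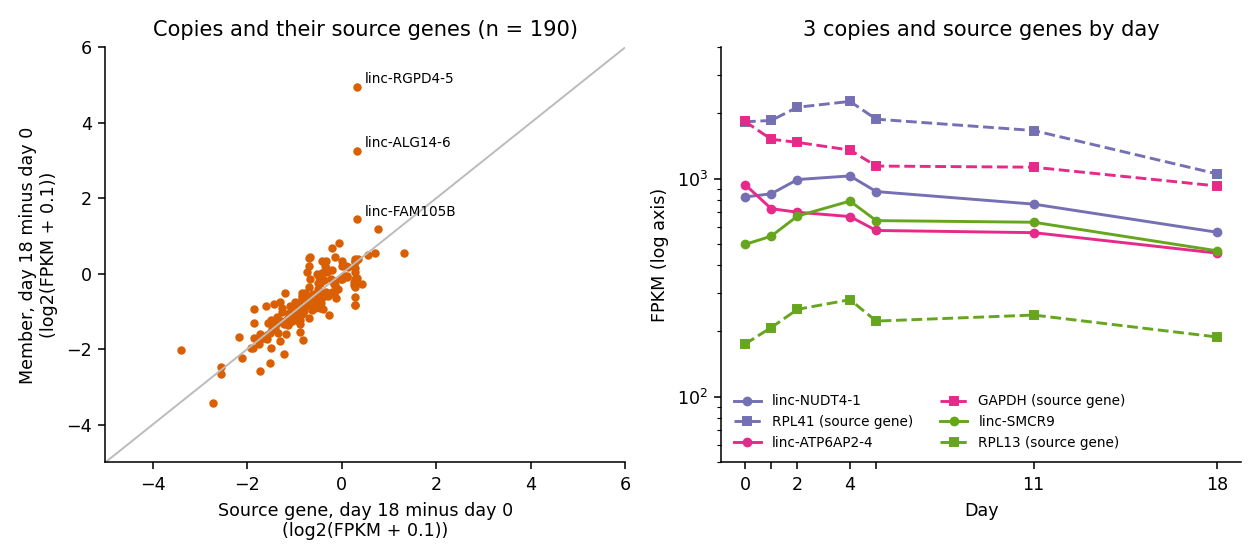
Left, difference between day 18 and day 0 in log2(FPKM + 0.1) of each copy against that of its source gene (190 pairs, the grey line marks equal values), with 3 of the 4 EEF1A1 copies named. Right, FPKM by day (log axis) of linc-NUDT4-1, linc-ATP6AP2-4 and linc-SMCR9 (solid) and of RPL41, GAPDH and RPL13 (dashed). Most points lie near the line, and each of the 3 copies is highest on the same day as its source gene.

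Single pairs show this at closer range. The record linc-WDR41 (chr5:76878194-76878842, minus strand), on the opposite strand of an RPL7 copy, stood at 801 FPKM on day 2 and between 150 and 263 on the other days. Its source gene RPL7 also had its highest value on day 2, 125 FPKM against 38.8 to 55.8. Member and gene thus shared their day of highest FPKM.

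A few copies departed from their source gene: 8 of the 190 differed from it by more than 1 on the log2 scale. Among these, 3 matched EEF1A1, a translation elongation factor that 4 copies matched in all. The others were linc-CHD9-7 (HNRNPA1), linc-NOL6-4 (ANXA2), linc-CEP44-3 (MORF4L1) and the PKD1 copies linc-TMC7-3 and linc-PLA2G10-1. The EEF1A1 copy linc-FAM105B was at 58.9 FPKM on day 0, 309 on day 4 and 160 on day 18. The record linc-ALG14-6 was at 104 FPKM on day 4 and 78.3 on day 18, and between 8.09 and 19.4 on the other 5 days. The record linc-RGPD4-5 had the same pair of high days, with 11.3 and 17.8 FPKM against 0.478 to 1.43. EEF1A1 itself had 1108 FPKM on day 0, 3124 on day 4 and 1389 on day 18, without a second high day. Beyond these pairs, the RPL26 copy linc-OTOGL-1 was listed at 55.9 FPKM on day 18, at 0.00176 on day 0 and at 0 on the 5 days between, so that its mean passed the limit through 1 day. RPL26 ran from 256 to 494 FPKM over those days.

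A listed 0 need not mean absence in these files. On day 18 the coding record of the alpha tubulin TUBA1B, which every cell uses, was listed at 0 after values between 1895 and 3398 FPKM on the earlier days. Besides linc-OTOGL-1, members with a listed 0 were linc-OR6C76, a copy of PHC1 with 3.84 FPKM on day 0, 0 on day 5 and 4.14 on day 18, and linc-CNKSR3, on a pseudogene of RPS4X, with 0 on days 0, 1 and 2 and 6.07 on day 18. On a tubulin pseudogene, the members linc-FAT3-2 and linc-CHORDC1-1 occupy opposite strands of the same stretch of chr11 from base 90015699. The plus-strand record had 289 FPKM on day 0 and 158 on day 18, while the minus-strand record had 492 and 17.3. Likewise, linc-SALL1-3 and linc-CHD9-7 lie on opposite strands of HNRNPA1L3, with means of 582 and 19.8 FPKM. Reads of the opposite strands cannot be told apart in these pairs, so the values need not be levels of a single strand.

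Over all members, the highest day was most often day 0. It was day 0 for 230 members, day 4 for 137, day 2 for 94, day 18 for 73, day 11 for 65, day 1 for 48 and day 5 for 45. Among all 14443 records with a mean of at least 1 FPKM, 42.6% were highest on day 0, beside 33.2% of the members. Among the 2650 lincRNA records at that level, which include the members, the share was 32.6%. For 275 members the highest day exceeded the next by less than 1.1 times, and for 9 by at least 3 times. The median of all records was itself 0.56 lower on day 18 than on day 0 on the log2 scale. With each day recentred on that median, 185 members (26.7%) were highest on day 0 and 192 (27.7%) on day 18, beside 32.8% and 27.1% of all records. For the lincRNA records these shares were 24.6% and 26.5%.

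The sets differed in their highest day. Of the copies, 100 of 211 (47.4%) were highest on day 0 and 49 (23.2%) on day 4, and 7 (3.32%) on day 18. Of the distinct members, 24 of 187 (12.8%) were highest on day 0, 41 (21.9%) on day 11 and 30 (16.0%) on day 18. The members between the sets had 106 of 294 on day 0 and 36 on day 18. Of all records, 12.5% were highest on day 4, 9.62% on day 11 and 8.54% on day 18. The 142 lincRNAs at bidirectional promoters had 17.6% on day 0, 19.7% on day 11 and 2.11% on day 18. Recentred, those shares were 12.7%, 24.6% and 21.8%. After recentring, day 0 and day 18 were highest for 89 and 37 of the copies, 16 and 66 of the distinct members, and 80 and 89 of the members between, where the order thus turned.

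**Figure D3:**
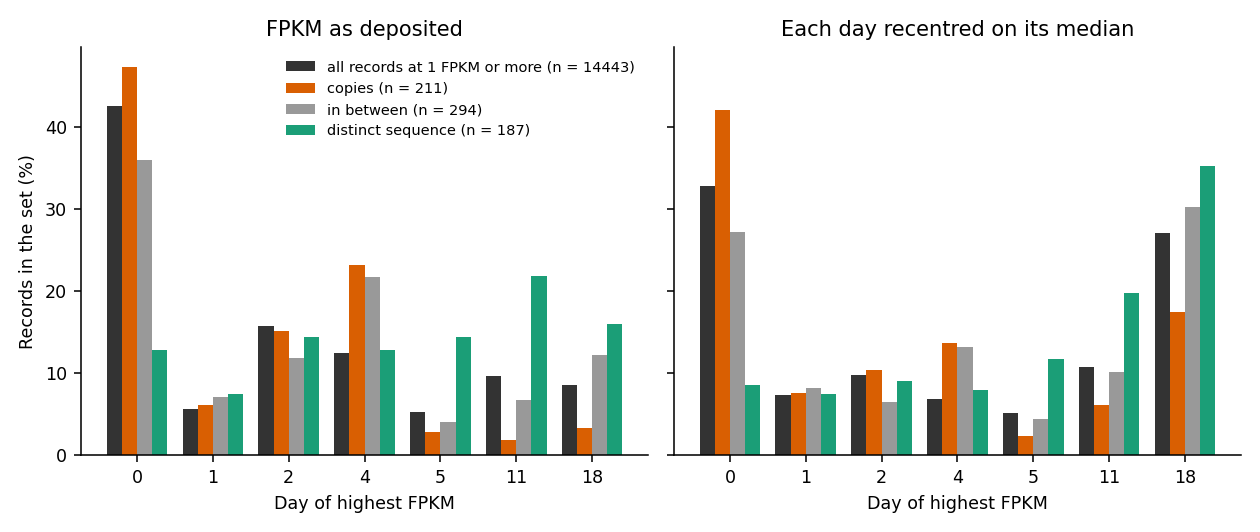
Percent of records whose highest FPKM fell on each day, for all 14443 records with a mean of at least 1 FPKM, 211 copies, 294 members in between and 187 distinct members, with FPKM as deposited (left) and with each day recentred on the median over all records (right). Distinct members are the set with the smallest share on day 0 and the largest share on days 11 and 18 in both panels.

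Between day 0 and day 18, 75 members (10.8%) were at least 2-fold higher on day 18, beside a background of 7.6% over all 14443 records, and 174 members (25.1%) were at least 2-fold lower, beside 28.5%. Recentred, the counts were 145 higher and 73 lower, beside 14.6% and 12% of all records. Among copies, 6 were higher and 72 lower, with a median difference of -0.74, and after recentring 15 were higher and 26 (12.3%) lower. Among distinct members, 47 (25.1%) were higher and 27 (14.4%) lower, with a median of 0.29, and after recentring 80 were higher and 14 lower. In the members between, 22 were higher and 75 lower, and the order turned after recentring, with 50 higher and 33 lower. For 15 distinct members the mean over the 6 days other than the highest was under 1 FPKM, so that the highest day brought them past the limit. Of these 15, 6 were higher and 4 lower on day 18, and of the other 172 distinct members, 41 were higher and 23 lower. The median over all members was -0.43, beside -0.56 for all records, -0.60 for coding records, -0.18 for the 142 lincRNAs at bidirectional promoters, -0.37 for 1004 antisense lincRNAs and -0.42 for 800 pseudogene-flagged ones.

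**Figure D4:**
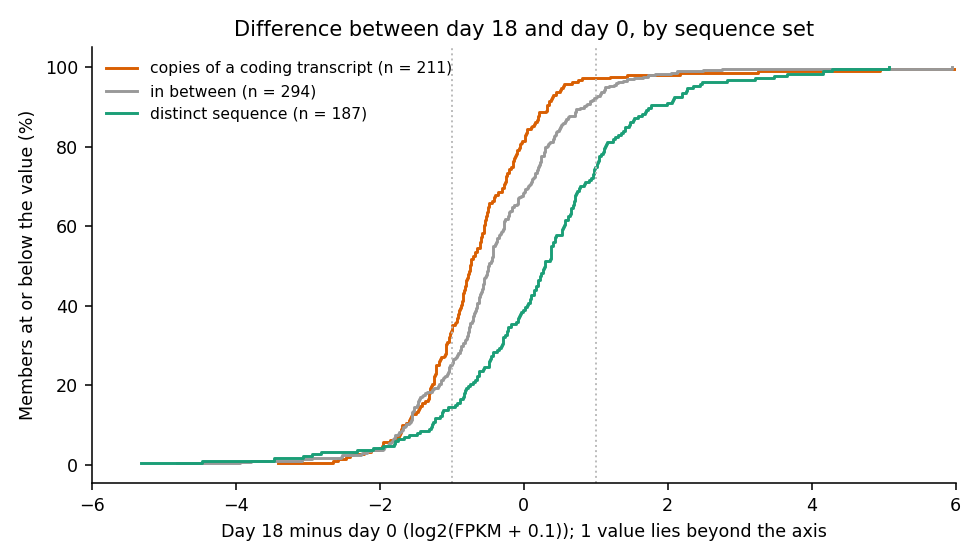
Cumulative percent of members at or below each difference between day 18 and day 0 in log2(FPKM + 0.1), for 211 copies, 294 members in between and 187 distinct members. Dotted lines mark 2-fold, and the value of linc-OTOGL-1 lies beyond the axis. The line of the distinct members lies to the right of the line of the copies over most of its length, with medians of 0.29 and -0.74.

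By steps between adjacent days, most 2-fold differences came at the first step and after day 5. Percents in brackets are the background, the share of all 14443 records, and not the share of the members. From day 0 to day 1, 47 members were higher (background 3.95%) and 24 lower (3.21%). Of the 47 higher, 28 were distinct members, and of the 24 lower, 2 were. From day 1 to day 2 there were 8 higher (0.242%) and 4 lower (0.27%), from day 2 to day 4 there were 8 higher (0.284%) and 9 lower (0.672%), and from day 4 to day 5, the step that spans the replating, 8 higher (0.332%) and 4 lower (0.166%). At each step from day 1 to day 5 the 8 higher made up 1.16% of the members, and the lower made up 0.578%, 1.30% and 0.578% in order. From day 5 to day 11 there were 10 higher (1.7%) and 36 lower (4.18%), and from day 11 to day 18 there were 18 higher (0.914%) and 26 lower (3.68%). At this last step the balance turned after recentring, with 28 higher (1.86%) and 5 lower (1.35%).

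In the cultures themselves, 6 of 7 neuronal genes were at least 2-fold higher and 3 of 3 cell cycle genes at least 2-fold lower on day 18: STMN2 went from 32.3 to 727 FPKM, DCX from 5.46 to 88.0 and MKI67 from 74.2 to 14.2, while of 6 neural stem cell genes NES was at least 2-fold lower, from 513 to 180, PAX6 at least 2-fold higher, from 4.31 to 10.4, and the other 4 passed 2-fold in neither direction. Pluripotency genes POU5F1 and NANOG were under 0.11 FPKM on every day, and the 5 glial genes summed to 1.14 FPKM on day 0 and 0.461 on day 18. Of 4 mesenchymal genes, 2 were at least 2-fold lower on day 18 and COL1A1 was listed at 0 throughout, with a sum of 606 on day 0 and 50.6 on day 18. CDK1 and LIN28A were also looked for and not found. These calls are as deposited and were not recentred, and of all records 7.6% were at least 2-fold higher and 28.5% lower. NES differed by -1.51, beside a median of -0.56 over all records, so its call depends on that shift. In such bulk samples, fewer cells of a type and less RNA per cell cannot be told apart, and the part of any of these cells in the members' differences was not tested.

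Of the 8 largest differences upward, 5 belonged to distinct members. Among these the largest was that of linc-MAP1LC3B2-5 (chr12:113910751-113918418, plus strand), which overlaps LHX5-AS1 and starts near LHX5, a homeobox factor of the developing brain. Its FPKM was 0.0518, 0.0794, 0.219, 0.289, 0.751, 1.28 and 5.03 on the 7 days, a difference of 5.08 on the log2 scale. Each day was above the one before, and the mean passed the limit of 1 FPKM through day 18. LHX5 itself, 874 bases away, went from 0.0640 to 3.29.

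The same steady order was seen in linc-RAMP3 (chr7:45117263-45118912, plus strand), which overlaps no GENCODE gene. It had 0.204, 0.438, 0.673, 0.751, 1.45, 3.16 and 5.31 FPKM, a difference of 4.15, and its nearest coding record NACAD, 1125 bases away, went from 3.72 to 19. In linc-ZNF526, on POU2F2-AS2, FPKM went from 0.512 to 6.69 (3.47), and in the neighbouring factor gene POU2F2 from 1.13 to 18.9. The record linc-PRDM9-8, on LINC02223, went from 0.256 to 4.39 (3.66), and linc-ADAMTSL1, which shares exon bases with the gene ADAMTSL1, from 0.0361 to 2.55 (4.29). With day 0 levels this low, the log2 differences depend on the 0.1 added.

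Of distinct members at least 2-fold higher, 32 had a nearest coding record with a mean of at least 1 FPKM and no listed 0, and 13 of these coding records were at least 2-fold higher too, 3 lower, beside 7.57% higher and 29.9% lower of all 11793 coding records. Of 18 distinct members at least 2-fold lower with such a neighbour, 9 neighbours were lower and 3 higher. Across the 143 distinct members with such a neighbour, r of the differences was 0.51 and rho 0.48, with r = 0.61 for the 66 under 5 kb away and 0.48 for the 77 farther off. Of the 47 distinct members on a protein-coding gene of their strand, 20 lay on the gene that was also their nearest coding record. One of them was linc-NOVA2, 202 bases from NOVA2, a neuronal splicing factor. It went from 2.63 to 5.99 FPKM and NOVA2 from 10.2 to 24.3, a difference of 1.16 and 1.24. Of the 47, 29 lay under 5 kb from their nearest coding record. The 47 were not left out of r and rho, so a member and its neighbour there may be records of the same gene. Without those 47, distinct members on a lncRNA gene had 20 higher and 16 lower of 93, and those on no gene 12 higher and 5 lower of 44.

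Distinct members lower on day 18 included some of the steepest differences of all. The record linc-ARL15-3 (chr5:53955895-54034320, minus strand) had 5.91, 1.67, 1.46, 0.647, 0.880, 0.0506 and 0.0505 FPKM, a difference of -5.32. It was lower by day 1 and lower again after day 5, and its mean passed the limit of 1 FPKM through day 0. The record linc-AGA-9, on TENM3-AS1, had 7.46, 3.70, 4.31, 2.88, 4.02, 0.591 and 0.240 FPKM (-4.47). The record linc-SNTG2-8, on LINC01865, went from 3.18 to 0.195 (-3.47), and its nearest coding record FAM150B from 30.6 to 0.676. On MARVELD1, a protein-coding gene, linc-ZFYVE27 went from 14.5 to 1.64 (-3.07), and linc-MRPS11, on LINC00052, from 6.23 to 0.721 (-2.95) after its highest value, 7.54, on day 5. Among the other members, linc-SH3BP4-1 on LINC01173 went from 7.31 to 0.381, linc-MERTK-6 from 3.91 to 0.374, and linc-AMN1-2, on a pseudogene of the interferon-induced IFITM3, from 78.3 to 5.56. The copy linc-SMAP1 went from 7.72 to 0.633 FPKM, and its source gene SMS, a polyamine synthase, from 168 to 25.2.

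**Figure D5:**
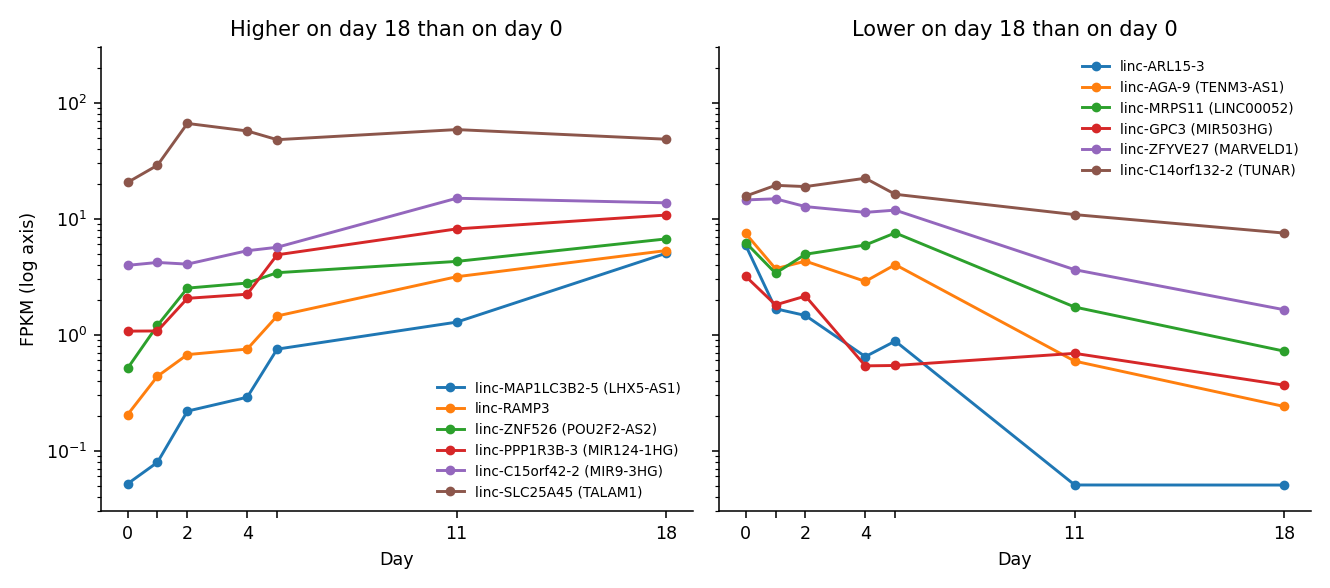
FPKM by day (log axis) of 6 distinct members that were higher on day 18 than on day 0 (left) and 6 that were lower (right), each line 1 record with the GENCODE gene on its strand where it has a name. The left lines end between 5.03 and 48.4 FPKM, and linc-ARL15-3 ends at 0.0505.

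Exons of genes named as microRNA hosts were overlapped by 5 members, from 4 named hosts. No microRNA hairpin lay inside the span of these 5 records, so their FPKM is not a level of the microRNAs. The record linc-C15orf42-2, on MIR9-3HG, had 3.96, 4.19, 4.06, 5.30, 5.67, 15 and 13.7 FPKM, and linc-PPP1R3B-3, on MIR124-1HG, a host of the neuronal miR-124, had 1.07, 1.08, 2.06, 2.23, 4.88, 8.17 and 10.7. Both were at least 2-fold higher on day 18 (1.77 and 3.21). The record linc-GPC3, on MIR503HG, was lower, from 3.19 to 0.367 FPKM (-2.82). The pair on MIR99AHG, linc-CXADR-2 and linc-CXADR-3, had differences of 0.14 and -0.81, short of 2-fold. The median over the 5 was 0.14, beside -0.56 for all records, of which 7.6% were at least 2-fold higher and 28.5% lower.

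Host genes of small nucleolar RNAs, which guide the modification of ribosomal RNA, gave 3 members. On SNHG5, linc-SYNCRIP had 16.2, 27.0, 32.3, 28.4, 22.2, 17.6 and 15.4 FPKM, with its highest values in the middle of the course. Partly on SNHG17, linc-KIAA1755-1 was highest on day 0 at 4.33 and lowest on day 18 at 1.71 (-1.29). On SNHG11, linc-RALGAPB stayed between 1.69 and 3.23. So 1 of the 3 was at least 2-fold lower and 0 higher, with a median of -0.49, beside 28.5% lower, 7.6% higher and a median of -0.56 over all records, and after recentring 0 of 3 passed 2-fold.

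Of 6 members from lncRNAs known from neural tissue, SNHG11 among them, 0 were at least 2-fold higher and 1 lower, with a median of -0.33, whereas after recentring 2 were higher and 0 lower. Of all records 7.6% were higher and 28.5% lower, and 14.6% and 12% after recentring. The one lower was linc-C14orf132-2, on TUNAR, now annotated as protein-coding, at 15.7, 19.4, 18.9, 22.3, 16.2, 10.8 and 7.52 FPKM (-1.05). On SOX2-OT, which overlaps the progenitor gene SOX2, linc-ATP11B-8 went from 7.65 to 4.92 with its highest value, 12.2, on day 4. SOX2 went from 126 to 66.1. On CASC15, linc-HDGFL1-2 went from 3.95 to 7.69 (0.94), on DGCR5 linc-TSSK2 from 2.12 to 3.72 (0.78), and on LINC01122 linc-PAPOLG-4 from 9.78 to 8.72 (-0.16). The records of CASC15 and DGCR5 are those past 2-fold after recentring. These last 3 records are not in the distinct set.

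Of 3 members from lncRNAs known from growth, stress and cancer, the PVT1 records linc-EFR3A-5 and linc-EFR3A-8 were lower, from 6.41 to 2.52 and from 9.35 to 4.18 FPKM, and linc-TMEM183B-2 on PCAT6 was higher, from 1.18 to 3.14. After recentring neither PVT1 record was 2-fold lower (-0.75 and -0.59), while that of PCAT6 stayed higher. Of all records 7.6% were higher and 28.5% lower, and 14.6% and 12% after recentring. MYC, the coding record nearest to both PVT1 records, went from 16.0 to 6.61. The lists of imprinted lncRNAs (18 names), pluripotency lncRNAs (11) and abundant small nuclear and cytoplasmic RNAs (13) held 0 members. Only members were searched, so this does not show whether such RNAs were present in other records.

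The 3 strongest distinct members were the following. The NBDY record linc-FAAH2-3 had 61.9, 77.1, 85.8, 91.7, 87.8, 66.4 and 48.7 FPKM. Next came linc-SLC25A45 (chr11:65190324-65278499, minus strand), which overlaps TALAM1, the antisense transcript of MALAT1, at 20.5, 28.9, 66.3, 57.1, 48.0, 58.7 and 48.4. Reads of the 2 strands cannot be told apart here. On LINC01278, linc-SPIN4 ran from 20.3 FPKM on day 0 to 37.9 on day 2. The highest day of linc-SLC25A45 was day 2 as deposited and day 11 after recentring. Of the distinct members, 14 had a mean of at least 10.

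For each day, members were picked by the ratio of that day to the mean of the other days, and in several the next day was close behind. Of the 692 members, 37 had a mean under 1 FPKM over the 6 days other than the highest. Their highest day brought them past the limit, and records below with low values on the other days may be among them. The distinct record linc-CDK17-4 was at 6.97 FPKM on day 4 and at 0.600 to 2.27 on the others. On day 1, linc-LPHN2-3, on a pseudogene of PSAT1, was at 14.6 against 3.28 to 12.9, and linc-MED14-4, on a pseudogene of CLIC4, at 5.91 against 1.54 to 4.40. On day 2 the NSF copy linc-LRRC37A2 was at 3.70 against 0.207 to 1.23, on day 5 linc-DCUN1D4-13 was at 2.47 against 0.888 to 2.31, and on day 11 linc-TAOK3-1, on LINC02440, was at 2.48 against 0.381 to 2.11.

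Of 7 members with ribosomal or mitochondrial sequence, 6 were highest on day 18 and 1 on day 4. Of 5 members with at least 25% of their exon bases matching the contig that carries the ribosomal RNA unit, 5 were highest on day 18: linc-LOC653550-22 had 32.7 FPKM on day 0 and 74.5 on day 18, linc-C2orf27B-7 31.5 and 66.4, linc-ATP4A 39.2 and 55.4, linc-BOD1-5 10.5 and 21.0, and linc-GPR39-5 2.21 and 4.90. A further 2 members matched the mitochondrial genome, and of these linc-PTP4A1-2 had 20.9 and 37.3 FPKM while linc-FAM174A-2 had 1.52 and 0.858. At least 2-fold higher on day 18 were 3 of these 7 members, and their median difference was 1.00. Of all records, 7.6% were at least 2-fold higher and 8.54% were highest on day 18, with a median difference of -0.56. How completely poly(A) RNA was selected on each day was not tested. These 7 members are outside the distinct set.

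By position, 61 members overlapped the span of a coding record, 47 lay under 1 kb from one, 91 from 1 to 5 kb, 270 from 5 to 50 kb and 223 over 50 kb. Of all members, 48 shared exon bases with a coding record, in each case on the other strand. Exon length had a median of 1552.5 bases, beside 3704 for coding records with a mean of at least 1 FPKM, and 142 members had no gap of 100 bases or more between their exon blocks.

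Promoters could be looked up only by the symbol of the GENCODE gene that a distinct member overlaps, protein-coding genes included. Whether a member starts at such a promoter was not checked, and a gene with several promoters counts several times. The shares below describe promoters of the overlapped genes and need not hold for the members. Of 136 symbols, 71 were found in the RefSeq promoter table (GRCh38.p14, 250 bases before to 50 after the start), giving 96 promoters. Of the 5 motifs searched on both strands, none contains another. The letters GGGCGG were present in 57.3% of them and in 45.0% of all 35116 promoters, CCAAT in 41.7% and 34.6%, CAGCTG in 15.6% and 17.9%, TATAAA in 9.38% and 11.5%, and TGACTCA in 3.12% and 4.95%. Median GC content was 60.7% and 58.7%, and the median ratio of observed to expected CpG was 0.738 and 0.579.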

How the data were processed

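Total RNA of the cultures was made into poly(A) libraries and sequenced by the authors, who aligned reads with TopHat2 to hg19 (per the submitters' processing notes), assembled transcripts with Cufflinks and estimated levels with Cuffdiff2 under default options. Versions are not given in the sources used here. The deposited matrix holds FPKM values, 1 per record and day, pooled by the authors over the cultures of a day, with 0 columns of single samples. No counts were used, so depth is unknown and no interval was computed. The table of records gives coordinates, exons, a pseudogene flag and a coding potential score, deposited by the authors, of which the score was not used. It also holds the authors' own fold changes, p-values and calls between days, which were not used. The 2 files differed in the FPKM of 4 records, none of them a member.

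Differences were taken in log2(FPKM + 0.1), and called at 2-fold. Recentring subtracted the median difference of the 14443 records with a mean of at least 1 FPKM from each day. Exon sequences of members were read from the GRCh37 genome with samtools 1.23.1 and pysam 0.24.0 and matched by blastn (BLAST+ 2.17.0) to 1 canonical transcript per protein-coding gene of GENCODE v44. Matches counted from 50 bases, and a source gene had to lie more than 5 kb away. Both steps were tested on simulated data. GRCh37 is the build of hg19. Values come from Python 3.11.15, pandas 2.3.3 and NumPy 2.4.6, and figures from matplotlib 3.10.9.

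Members and lists were chosen with earlier results of these data known. Named are the 20 strongest members, the 8 largest differences in each direction, the 2 per day with the highest day against the mean of the others, 3 on each side of the limit, and the members of the lists. Other records, such as linc-FAAH2-3, linc-SLC25A45, linc-SPIN4, linc-NOVA2, linc-ZFYVE27, linc-FAM105B and those with ribosomal or mitochondrial sequence, were named after their values were seen. Members on chromosome Y are counted and not named. One further list member is not reported here. Alternatives and their effects close the report.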

Additional observations from a re-analysis of the deposited data

How the results depend on the processing

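No paired analysis was possible because the deposited table holds 1 value per record and day, and for the same reason no culture could be left out. Counts below are percents of the members at least 2-fold higher or lower, and the cause of each shift was not tested unless the setting itself is the cause. At a threshold of 3-fold, 5.20% were higher and 9.97% lower on day 18 than on day 0, and by step 1.59% higher and 1.01% lower (day 0 to 1), 0.289% and 0.289% (1 to 2), 0.578% and 0.723% (2 to 4), 0.289% higher (4 to 5), 0.578% and 2.17% (5 to 11) and 1.16% and 0.289% (11 to 18). With 1 added in place of 0.1, 6.65% were higher on day 18 than on day 0, and by step 2.17% were higher and 2.02% lower (0 to 1), 0.578% higher (1 to 2), 0.578% and 0.578% (2 to 4), 0% higher (4 to 5), 0.434% and 3.03% (5 to 11) and 1.01% lower (11 to 18). With days recentred, the median difference between day 18 and day 0 turned to 0.12, 21.0% were higher and 10.5% lower, 4.05% and 0.723% from day 11 to 18, and the highest day was day 2 in 8.38%, day 4 in 12% and day 18 in 27.7%.

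With a mean of at least 5 FPKM, 6.85% were higher on day 18 than on day 0, by step 3.77% higher (0 to 1), 0.342% lower (1 to 2), 0.685% and 0.342% (2 to 4), 0% and 0.342% (4 to 5) and 0.685% higher (5 to 11), and the highest day was day 5 in 3.08%, day 11 in 4.11% and day 18 in 6.16%. With at least 0.5 FPKM, 0.951% were lower from day 1 to 2 and 2.54% higher from day 5 to 11. Among the 100 members whose highest day was at least 1.5 times the next, it was day 0 in 67%, day 2 in 7%, day 4 in 3%, day 11 in 2%, day 18 in 21% and days 1 and 5 in 0%.

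A further 3 settings were chosen after seeing the data. With distinct members alone, the median turned to 0.29, 25.1% were higher and 14.4% lower on day 18, by step 15% and 1.07% (0 to 1), 2.14% and 0% (1 to 2), 2.14% higher (4 to 5), 3.74% higher (5 to 11) and 1.07% and 6.42% (11 to 18), and the highest day was day 0 in 12.8%, day 4 in 12.8%, day 5 in 14.4%, day 11 in 21.9% and day 18 in 16.0%. Without copies the median was -0.26 and 0.208% were lower from day 4 to 5. Leaving out members that match ribosomal or mitochondrial sequence moved none of the same counts past 1.5 times. Depth is unknown, so low values carry no stated error.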

Other observations

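Some values of single days lie far from the neighbouring days of the same record. The highest day was at least 3 times the next in 9 of the 692 members. The pairs of high days of linc-ALG14-6 and linc-RGPD4-5, both days 4 and 18, concern copies of the same gene, EEF1A1, and 60.5% and 95.3% of their exon bases match another member. The PHC1 copy linc-OR6C76 had 3.84, 0.205, 0.103, 0.0317, 0, 3.01 and 4.14 FPKM over the 7 days, so that it was lowest in the middle of the course.

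MicroRNA hairpins other than those of the named host genes lay close to some members. MIR4495 lies inside the span of linc-CDK17-3, MIR4697 inside that of linc-SPATA19-2, and MIR3648 and MIR3687 inside that of linc-POTED-12.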
